A study of Mus musculus with 6 samples.

Results

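Neuropeptides are made as long precursors that enter the regulated secretory pathway, are cut at pairs of basic residues by prohormone convertases and are released from dense-core vesicles. Granins are the acidic proteins that help to form and fill these vesicles, and several of them also give rise to peptides. In the brainstem, peptides such as enkephalin, substance P, somatostatin and thyrotropin-releasing hormone are known modulators of breathing, pain and autonomic reflexes. The present results describe 33 genes of this kind, chosen by name: 26 peptide precursors and 7 granins or granin-like proteins. All 33 were found by gene name in the merged assembly, each on 1 of its 34632 loci.

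RNA-Seq was performed on the brainstem of P21 mice in 2 groups. *Hoxa5* cKO pups were tamoxifen-treated *Hoxa5* flox/flox;CMV-CreERT2+/- animals, and *Hoxa5* control pups were tamoxifen-treated *Hoxa5* flox/flox;CMV-CreERT2-/- littermates, so that both groups carried the floxed allele and received tamoxifen from P1 to P4. Cre-ER was driven by the CMV promoter, which is active in many cell types, and the CreERT2+/- mice were kept on a mixed background, principally 129/Sv. Each of the 3 libraries per genotype was made from RNA pooled from 3 brainstems, and the libraries held 12034613 to 13202707 fragments (read pairs assigned to a locus). Spread between libraries is therefore spread between pools.

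The targeted gene did not separate the 2 groups. The *Hoxa5* locus, which the assembly merges with *Hoxa6* and *2700086A05Rik*, had 279, 57 and 63 fragments in the libraries labelled cKO and 202, 337 and 77 in those labelled control. It was thus high in cKO 1 and low in control 3, against their labels. The genotype names below are those of the labels, and values without these 2 libraries are given for the counts of calls and for the genes that the results turn on. Library cKO 1 further held 3 fragments over 4 Y-linked genes, against 1069 to 1734 in the other libraries. Markers of the labelled tissue were present: *Slc6a5* of glycinergic neurons had 2523 to 3427 fragments and *Tph2* of serotonergic neurons 498 to 690. Of 12 such markers these had the most fragments, and *Phox2a* had the fewest, 4 to 9. By contrast, 5 of 10 pituitary markers and 2 of 10 hypothalamic markers had no fragment in any library. Of the hypothalamic markers, *Nkx2-2* had 72 to 110 fragments and *Otp* 9 to 24, and the other 6 with any fragment had at most 11. Of 8 forebrain markers 1 had no fragment, as had 2 of 8 spinal cord *Hox* genes, but *Neurod6* of the forebrain had 32 to 44. The spinal gene *Hoxb8* had 76 to 97 fragments. *Hoxc8* varied by pool, with 13, 3 and 2 in cKO libraries and 27, 19 and 7 in control libraries.

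The precursors differ in how many peptides they encode, and the coding sequence shows it. Opioid peptides open with a short core. Translation of the reference transcripts (GENCODE M21, GRCm38) placed 7 copies of it in the 268 codons of *Penk*, 6 of Met-enkephalin and 1 of Leu-enkephalin, 3 Leu-enkephalin cores in the 248 codons of *Pdyn* and 1 Met-enkephalin core in *Pomc*, at the start of beta-endorphin. *Pnoc* encodes nociceptin, whose related core occurs in 1 copy. The stretches below show, 5′ to 3′ on the coding strand, the core in capitals and the neighbouring codons, among which are the basic pairs where convertases cut, in lower case; they are shown because like cores are encoded by 4 genes of which *Penk* had a far higher level than the other 3.
Penk, Met-enkephalin (chr4:4134220-4134246, minus strand): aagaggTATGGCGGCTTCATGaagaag
Penk, Leu-enkephalin (chr4:4133935-4133961, minus strand): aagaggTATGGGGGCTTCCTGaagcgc
Pdyn (chr2:129688232-129688258, minus strand): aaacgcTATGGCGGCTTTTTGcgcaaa
Pomc (chr12:3960367-3960393, plus strand): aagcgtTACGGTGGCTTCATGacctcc
Pnoc (chr14:65404875-65404898, minus strand): aaaaggTTTGGGGGCTTCaccggg

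The tachykinin precursors have the same layout with another shared ending. *Tac1* holds 2 such endings, of substance P and neurokinin A, and *Tac2* holds 1, of neurokinin B. In each, the core in capitals is followed by a glycine codon, which donates the amide of the mature peptide, and a basic pair.
Tac1, substance P (chr6:7556744-7556773, plus strand): cagcagTTCTTTGGATTAATGggcaagcgg
Tac1, neurokinin A (chr6:7559110-7559139, plus strand): gattccTTTGTTGGACTAATGggcaaaaga
Tac2, neurokinin B (chr10:127729125-127729154, plus strand): gacttcTTTGTGGGACTTATGggcaagagg
A last pair, the sister genes *Avp* and *Oxt*, is shown because both were close to absent from these libraries. The stretches coding for vasopressin and oxytocin (capitals, 27 bases) match at 22 bases, and the glycine codon follows in lower case.
Avp (chr2:130582443-130582472, minus strand): TGCTACTTCCAGAACTGCCCAAGAGGCggc
Oxt (chr2:130576267-130576296, plus strand): TGCTACATCCAGAACTGCCCCCTGGGCggc

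Transcript levels of the 33 genes spanned a wide range, and granins stood at the top. Levels are compared between genes as FPKM, that is, fragments scaled to transcript length and library size as given by Cuffdiff. Of the 8 genes with the highest mean FPKM, 7 were the granins and the other was *Agt*. Together the granins made 69.7 to 71.7% of the FPKM summed over the 33 genes in each library, the opioid precursors 4.99 to 5.95% and the tachykinin precursors 2.93 to 3.41%.

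*Scg5*, which encodes the convertase chaperone 7B2, was highest with 148, 164 and 136 FPKM in cKO libraries and 155, 132 and 139 FPKM in control libraries. *Scg2*, the precursor of secretoneurin, had 133, 128 and 119 FPKM in cKO libraries, against 115, 123 and 122 FPKM in control libraries. Both genotypes overlapped for each gene. The ranges of both genes overlapped as well, but *Scg5* was above *Scg2* in every library. *Pcsk1n* (proSAAS, an inhibitor of the convertase PC1/3) overlapped *Scg2* in range but was below it in every library. It had 101, 122 and 116 FPKM in cKO libraries and 91.9, 105 and 110 FPKM in control libraries. *Chga* was below *Pcsk1n* in every library, with 91.1, 82.5 and 79.5 FPKM in cKO libraries and 78.3, 86.2 and 80.4 FPKM in control libraries. *Scg3*, which binds chromogranin to the vesicle membrane, had 72.7, 67.5 and 67.9 FPKM in cKO libraries, against 72.4, 71.4 and 68.8 FPKM in control libraries. *Vgf*, a granin-like precursor induced by neurotrophins, had 70.5, 59.9 and 57.5 FPKM in cKO libraries and 55.7, 63.2 and 56.2 FPKM in control libraries. *Chgb* closed the granins at 54.5 to 59.4 FPKM in cKO libraries and 56.0 to 60.7 FPKM in control libraries. The 7 granins thus lay between 54.5 and 164 FPKM, above all neuronal peptide precursors.

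**Figure D1:**
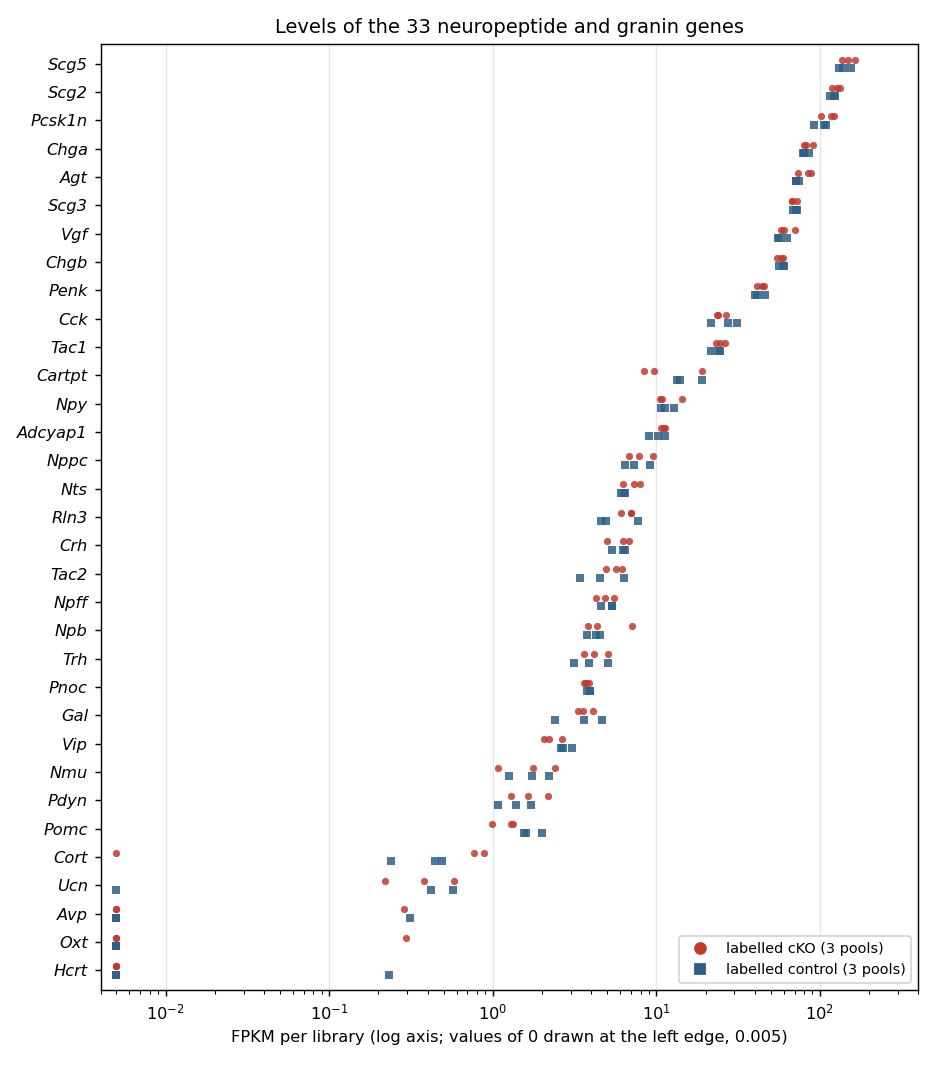
FPKM (log axis) of each of the 33 genes in the 3 libraries labelled cKO (red circles, upper row of each gene) and the 3 labelled control (blue squares, lower row), in order of mean FPKM. The 7 granins and *Agt* fill the top 8 places, *Penk* leads the remaining precursors at 40.2 to 46.1 FPKM, and *Cort*, *Ucn*, *Avp*, *Oxt* and *Hcrt* lie at the bottom with libraries at 0.

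Among the precursors of neuronal peptides, *Penk* (chr4:4133499-4141603 in the mm10 assembly) was highest, with 45.2, 40.9 and 44.0 FPKM in cKO libraries and 41.4, 46.1 and 40.2 FPKM in control libraries. The other opioid precursors were lower in every library: *Pnoc* averaged 3.81 FPKM, *Pdyn* 1.55 and *Pomc* 1.46 over all 6 libraries, against 43.0 for *Penk*. *Cck*, the precursor of cholecystokinin, averaged 25.6 FPKM and *Tac1* 24.1, with libraries that overlapped between both genes. *Tac2* averaged 5.17 FPKM. Next came *Cartpt* (13.9 FPKM), *Npy* (11.8) and *Adcyap1*, the PACAP precursor (10.6), and below them lay *Nppc* (7.82), *Nts* (6.72), *Rln3* (6.22) and *Crh* (6.01). *Npb* (4.65), *Trh* (4.15), *Gal* (3.61), *Vip* (2.55) and *Nmu* (1.74) completed the neuronal precursors detected in every library. The locus that carries *Npff* (4.98 FPKM) also carries *Atf7*, a widely expressed transcription factor gene, so its 415 to 522 fragments cannot be given to *Npff*.

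The 5 lowest genes were at or close to 0, among them hormones best known from the hypothalamus. *Avp* had 0, 0 and 1 fragments in cKO libraries and 1, 0 and 0 in control libraries. *Oxt* had a single fragment, in cKO 3, and *Hcrt*, the orexin precursor, a single one, in control 1. *Ucn* (urocortin, made in the midbrain Edinger-Westphal nucleus) had 1, 2 and 3 fragments in cKO libraries and 2, 0 and 3 in control libraries, and *Cort* (cortistatin) 3, 4 and 0 in cKO libraries and 1, 2 and 2 in control libraries. A count of 0 allows up to 3 fragments in a library, here 0.227 to 0.250 CPM (fragments relative to the TMM-scaled library total), and covers counting error only. No fold change is given for these 5 genes, which did not pass the filter on low counts and were not tested. By contrast *Crh* and *Trh*, which brainstem neurons also use, had 64 to 81 and 68 to 100 fragments, and *Rln3*, the marker peptide of the nucleus incertus of the pons, 17 to 29.

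The question put to these genes was whether loss of *Hoxa5* after birth was accompanied by a change in peptide or granin transcripts. None of the 28 genes tested was called between the genotypes (edgeR's quasi-likelihood test, Benjamini-Hochberg adjusted p under 0.05 over 21854 loci), where 0.531% of all loci tested were called (110 lower in cKO libraries, or 0.503%, and 6 higher, or 0.0275%). At an unadjusted p under 0.05 there were 2 of 28, *Agt* and *Pcsk1n*, both higher in cKO libraries, beside 6.94% of all loci. DESeq2 also called none, with 2 at an unadjusted p under 0.05. The libraries of both genotypes were fully apart in CPM for 2 of 28 genes, *Agt* and *Pomc*, beside 12.2% of all loci. Fold changes were positive for 18 genes (64.3%) and negative for 10, where 51.4% of all loci tested were positive. The median log2 fold change (cKO over control) was 0.07, against 0.003 over all loci tested. In bulk RNA, fewer cells of a type and less RNA per cell cannot be told apart.

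Without cKO 1 and control 3 the log2 fold changes of the 28 genes ran between -0.52 (*Nmu*) and 0.43 (*Pdyn*). The intervals show what size of change the edgeR fit of all 6 libraries could have missed. They take the labels as given, which the *Hoxa5* level does not bear out in 2 libraries. The standard error of the log2 fold change ran between 0.05 and 0.37, and the 95% interval of the fold lay within 1.5-fold in either direction for 20 of 28 genes and within 2-fold for 27. The exception, *Pomc*, was covered by 10 to 21 fragments per library. With DESeq2 the standard error of *Cartpt* was 0.40, against 0.22 with edgeR. The 8 genes whose interval reached beyond 1.5-fold were *Cartpt*, which varied between libraries, and *Pomc*, *Tac2*, *Rln3*, *Vip*, *Gal*, *Nmu* and *Npb*, all under 50 fragments on average, for which a smaller difference was not detectable at this depth.

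**Figure D2:**
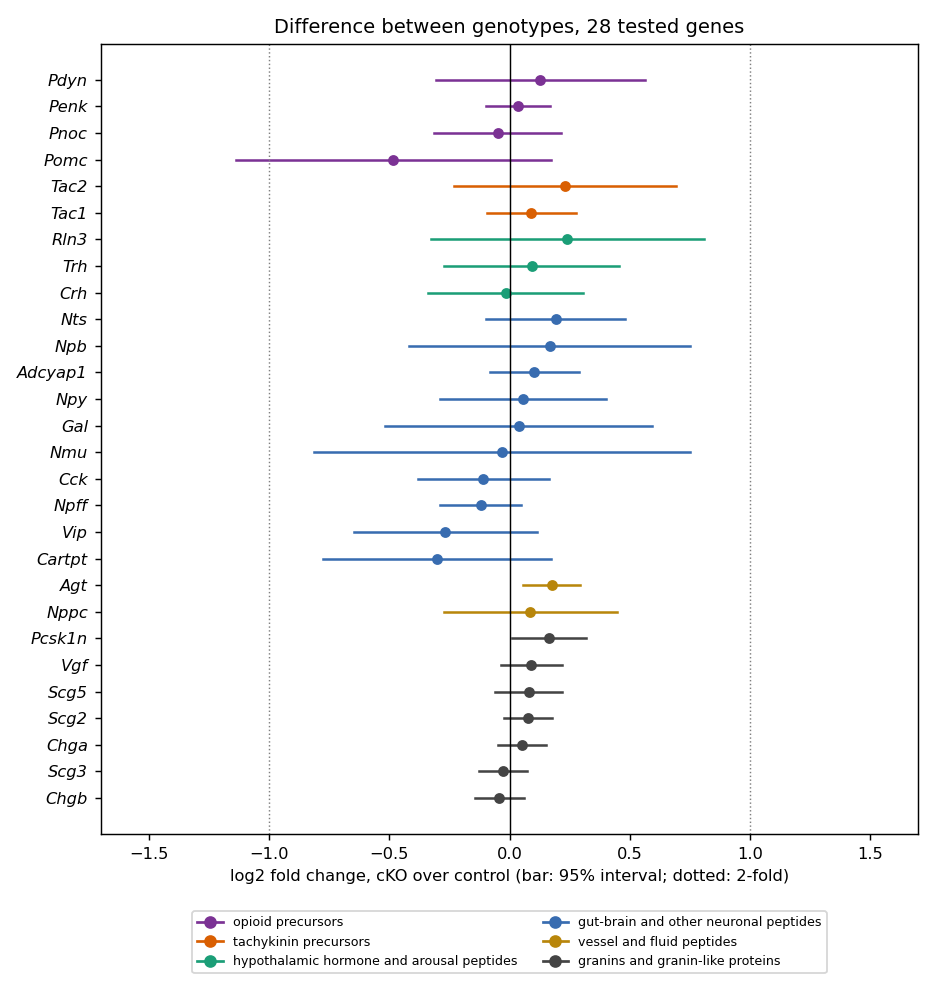
Log2 fold change, cKO over control, of the 28 tested genes with its 95% interval (bar), grouped and coloured by role. All estimates lie between -0.48 (*Pomc*) and 0.24 (*Rln3*), the bars of the abundant granins, *Agt* and *Penk* are short, and only the bars of *Agt* and *Pcsk1n* leave out 0 before adjustment.

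For the granins, log2 fold changes ran between -0.04 (*Chgb*) and 0.16 (*Pcsk1n*), and 5 of 7 were positive, beside 51.4% of all loci tested. All 95% intervals of the fold together spanned 0.904 to 1.25. The coefficient of variation of CPM over the 6 libraries was 3.42 to 11.0% for granins, with a median of 4.90%, where counting alone would give 1.42 to 2.42%, and it was over 2 times the counting value for 5 of 7. *Scg2* had 5126, 5340 and 4883 fragments in cKO libraries and 4538, 4844 and 5215 in control libraries, a fold of 1.05 (95% interval 0.983 to 1.13, edgeR adjusted p = 0.852). *Vgf* had 1818, 1778 and 1670 fragments in cKO libraries, against 1536, 1735 and 1685 in control libraries (fold 1.06, 95% interval 0.975 to 1.16, edgeR adjusted p = 0.86). Both sets of libraries overlapped for each gene.

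*Pcsk1n*, on the X chromosome, had the largest fold change of the granins. It had 1996, 2703 and 2490 fragments in cKO libraries and 1871, 2137 and 2416 in control libraries, so that cKO 1 lay inside the range of the control libraries. The log2 fold change was 0.16 ± 0.07 (SE) with an edgeR adjusted p of 0.68. Without cKO 1 and control 3, whose *Hoxa5* levels went against their labels, the log2 fold change was 0.30 with an adjusted p of 0.0198, and *Pcsk1n* was then the 1 gene called of 28, where 0.726% of 22179 loci were called. Without cKO 1 alone the adjusted p was 0.0579, and without control 3 alone it was 0.566. With each library left out in turn, the log2 fold change ran between 0.09 and 0.25. The sex marker *Xist*, also on the X chromosome, had 6523, 5326 and 5672 fragments in cKO libraries and 4482, 4576 and 4518 in control libraries. It was called higher in cKO libraries (edgeR adjusted p = 0.0302). The part of sex composition in the *Pcsk1n* values was not tested.

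*Agt*, the angiotensinogen gene on chromosome 8, is expressed in the brain mainly by astrocytes. It had 84.3, 73.9 and 87.6 FPKM in cKO libraries and 71.4, 74.4 and 71.8 FPKM in control libraries, and 1987, 1963 and 2251 against 1758, 1818 and 1928 fragments. In CPM the 3 cKO libraries lay above the 3 control libraries, whereas in FPKM cKO 2 fell among them. The log2 fold change was 0.17 ± 0.06 (SE), also 0.17 without cKO 1 and control 3, a fold of 1.13 (95% interval 1.04 to 1.23), with an edgeR p of 0.00638 and an adjusted p of 0.356 that over the alternatives ran between 0.101 and 0.984. None of 8 astrocyte markers was called. Their summed level was 4885 to 5202 CPM in cKO libraries and 4911 to 5018 CPM in control libraries, and 2 of the 8 had unadjusted p under 0.05, in opposite directions: *Gjb6* had 788, 827 and 909 fragments in cKO libraries and 655, 733 and 814 in control libraries, and *Aqp4* 5726, 5698 and 5524 in cKO libraries and 5989, 6388 and 6369 in control libraries. The part of astrocyte content in the *Agt* values was not tested. *Nppc* (C-type natriuretic peptide), the other vessel and fluid peptide, had 83, 65 and 74 fragments in cKO libraries and 65, 57 and 88 in control libraries (log2 fold change 0.09 ± 0.17, SE).

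The opioid precursors were followed one by one. *Penk* had 711, 707 and 763 fragments in cKO libraries and 680, 736 and 715 in control libraries, a fold of 1.02 (95% interval 0.934 to 1.12). *Pnoc* had 93 fragments in each cKO library and 95, 96 and 98 in control libraries (fold 0.967, 95% interval 0.805 to 1.16). Its coefficient of variation, the lowest of the tested precursors, was 3.78%, below the 10.3% that counting alone would give. *Pdyn*, the dynorphin precursor, had 33 to 57 fragments per library and overlapping genotypes. *Pomc*, the precursor of beta-endorphin, ACTH and melanocortins, had the largest fold change of all 28 genes on few fragments: 10, 15 and 15 in cKO libraries and 17, 21 and 18 in control libraries. Its fold was 0.716 with a 95% interval of 0.455 to 1.13 (edgeR adjusted p = 0.858), and without cKO 1 and control 3 its log2 fold change was -0.41, against -0.48 with all libraries. The marker of pituitary corticotrophs, *Tbx19*, had no fragment in any library, and *Prl*, *Cga* and *Fshb* had none either. Of the other pituitary markers, *Tshb* had 7, 4 and 3 fragments in cKO libraries and 6, 8 and 3 in control libraries, *Lhb* 3, 3 and 4 in cKO libraries and 2, 0 and 2 in control libraries, and *Pitx1* 1 to 6 in each library. *Gh* had 7 fragments in control 2 and none elsewhere. The part of pituitary content in the *Pomc* values was not tested.

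The tachykinin and other neuronal precursors overlapped between genotypes in CPM as well. *Tac1* had 259, 316 and 287 fragments in cKO libraries and 237, 279 and 294 in control libraries (fold 1.07, 95% interval 0.937 to 1.21), and *Tac2* 31 to 52 per library. *Adcyap1* had 287, 324 and 314 fragments in cKO libraries, against 255, 269 and 339 in control libraries (fold 1.07, 95% interval 0.946 to 1.22). *Nts*, the neurotensin precursor, had 106, 88 and 99 fragments in cKO libraries and 85, 85 and 87 in control libraries, or 8.85, 6.75 and 7.82 CPM against 6.96, 6.92 and 6.57 CPM, where cKO 2 fell among the control libraries. It had a log2 fold change of 0.19 ± 0.14 (SE) and an edgeR adjusted p of 0.873. *Vip* had 38, 52 and 42 fragments in cKO libraries and 48, 50 and 61 in control libraries (log2 fold change -0.27 ± 0.18, SE). For the *Npff* and *Atf7* locus the values were 415, 438 and 522 fragments in cKO libraries and 482, 512 and 501 in control libraries (log2 fold change -0.12 ± 0.08, SE). *Gal*, *Nmu* and *Npb* lay between 9 and 38 fragments per library.

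Among genes with at least 50 fragments on average, *Cartpt*, whose peptide CART is used by midbrain and vagal neurons among others, had the largest coefficient of variation (31.9%, where counting alone would give 9.44%). It had 73, 159 and 70 fragments in cKO libraries and 109, 104 and 159 in control libraries, highest in cKO 2 and control 3. Its log2 fold change was -0.30 ± 0.22 (SE) with an edgeR adjusted p of 0.886. Without cKO 2 it was -0.76 with an adjusted p of 0.0987, the lowest over all alternatives, without cKO 3 it was -0.09, and without both cKO 1 and control 3 it was 0.03, of the other sign.

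Some midbrain markers were also highest in these 2 libraries. *Slc6a3*, the dopamine transporter gene, had 145, 483 and 110 fragments in cKO libraries and 166, 132 and 368 in control libraries, and *Pax7*, of the dorsal midbrain, 39, 95 and 45 in cKO libraries and 57, 49 and 70 in control libraries. Summed over the list of 8 midbrain markers, of which 6 were tested and none was called, the level was 34.7, 73.5 and 34.3 CPM in cKO libraries and 43.2, 40.8 and 57.5 CPM in control libraries, of which *Slc6a3* made 8.69 to 37.1 CPM. Of the 8 markers, 6 were highest in cKO 2 or control 3. Only *Slc6a3* and *Pax7* had both these libraries on top. Among the others, *Barhl2* was highest in control 1 (67 fragments), and *En1* had 54, 89 and 66 fragments in cKO libraries and 52, 62 and 58 in control libraries. The part of midbrain content in the *Cartpt* values was not tested. *Cck*, which dopaminergic neurons of the rodent midbrain also contain, had 135, 175 and 152 fragments in cKO libraries and 165, 130 and 204 in control libraries, again highest within each genotype in cKO 2 and control 3. *Npy* had 58, 85 and 62 fragments in cKO libraries and 62, 71 and 64 in control libraries, where its coefficient of variation of 12.9% was close to the 12.2% of counting. *Trh* followed neither pattern, with 97, 77 and 87 fragments in cKO libraries and 77, 100 and 68 in control libraries.

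**Figure D3:**
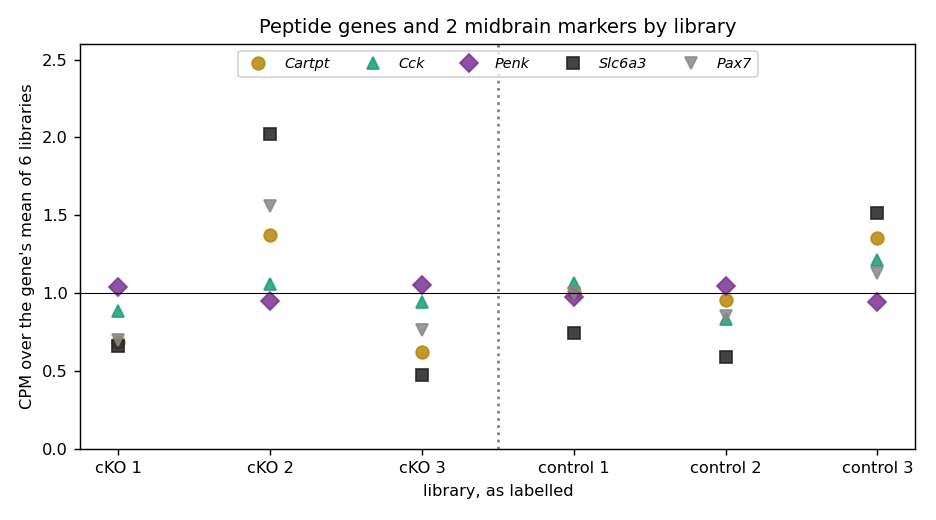
CPM of *Cartpt*, *Cck* and *Penk* and of the midbrain markers *Slc6a3* and *Pax7* in each library, divided by the gene's mean over the 6 libraries. *Cartpt*, *Slc6a3* and *Pax7* are highest in cKO 2 and control 3, where *Slc6a3* has 483 and 368 fragments, while *Penk* stays close to 1 in all libraries.

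The genes that make, store and receive the peptides were read from the same comparison. Of 146 such genes, 145 had a locus, 102 were tested, 2 were called lower in cKO libraries (0.503% of all loci were) and none higher. No other peptide precursor was called (11 tested of 39), and none of the 19 tested processing enzymes of 21. The main convertase *Pcsk2* and the trimming enzyme *Cpe*, picked for their role, had 32.1, 36.1 and 34.5 FPKM and 397, 485 and 443 FPKM in cKO libraries, against 33.7, 33.6 and 33.8 FPKM and 446, 414 and 454 FPKM in control libraries. The smallest p among enzymes was that of *Pcsk5* (152, 157 and 156 fragments in cKO libraries and 112, 148 and 139 in control libraries, edgeR adjusted p = 0.785). For *Pcsk6* and the protease *Ctsl* the log2 fold changes were -0.16 ± 0.10 and 0.10 ± 0.06 (SE), and for the precursors *Edn3*, *Calca* and *Gnrh1* 0.29 ± 0.25, 0.16 ± 0.15 and -0.30 ± 0.28 (SE).

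Of 24 dense-core vesicle genes, 1 was called. *Cadps2*, which encodes the vesicle priming factor CAPS2, had 640, 745 and 635 fragments in cKO libraries and 1196, 987 and 1001 in control libraries, with no overlap. Its fold was 0.633 (95% interval 0.562 to 0.714, edgeR adjusted p = 0.000676). Of the 24 genes, 6 were apart by library in CPM, beside 12.2% of all loci. Among them were *Syt4* and *Cyb561*, a calcium sensor homologue and an electron carrier of the vesicle membrane, which were not called. *Syt4* had 48.8, 51.7 and 49.1 FPKM in cKO libraries, against 57.6, 54.2 and 54.2 FPKM in control libraries. *Cyb561* had 18.2, 15.9 and 15.8 FPKM in cKO libraries, against 15.8, 14.7 and 14.3 FPKM in control libraries. Their edgeR adjusted p were 0.351 and 0.634. In FPKM, cKO 3 and control 1 of *Cyb561* came out nearly equal.

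Among 48 tested receptors of 62, *Crhr1*, the receptor of corticotropin-releasing hormone and urocortin, was the 1 called. It had 221, 273 and 224 fragments in cKO libraries and 368, 314 and 314 in control libraries, a fold of 0.72 (95% interval 0.623 to 0.833, edgeR adjusted p = 0.0392). Its ligand gene *Crh* had 73, 64 and 81 fragments in cKO libraries and 76, 65 and 80 in control libraries. The *Crhr1* call was lost without cKO 1 (adjusted p = 0.0582), cKO 3 (0.175), control 1 (0.35) or control 2 (0.0834), whereas *Cadps2* stayed called without any single library. Without both cKO 1 and control 3, the log2 fold changes were -0.53 for *Crhr1* and -0.73 for *Cadps2*, and both were called (adjusted p = 0.0286 and 9.95e-05). *Grpr* and *Oxtr*, the receptors of gastrin-releasing peptide and oxytocin, had 50, 58 and 67 and 51, 51 and 62 fragments in cKO libraries, against 32, 46 and 39 and 34, 41 and 46 in control libraries. Neither was called (edgeR adjusted p = 0.395 and 0.638).

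Cerebellar markers moved with the 2 called genes. *Cadps2* and *Crhr1* are both expressed in cerebellar neurons, and of 7 granule neuron markers 5 were called lower, as were 4 of 7 Purkinje cell markers. Without cKO 1 and control 3, the counts were 6 of 7 and 4 of 7. The summed level of granule neuron markers was 184 to 209 CPM in cKO libraries and 369 to 664 CPM in control libraries, and that of Purkinje cell markers was 114 to 146 CPM in cKO libraries and 185 to 324 CPM in control libraries. *Neurod1*, for example, had 91, 117 and 112 fragments in cKO libraries and 529, 367 and 330 in control libraries. Neither *Cadps2* nor the granule neuron list is confined to the cerebellum. By in situ hybridization in wild-type mice, the study found *Cadps2* and *Slc17a7*, which is on that list, in nuclei of the medulla. Its RT-qPCR found *Cadps2* lower in the dissected medulla of cKO mice. The part of cerebellar content in the *Cadps2* and *Crhr1* values was not tested.

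**Figure D4:**
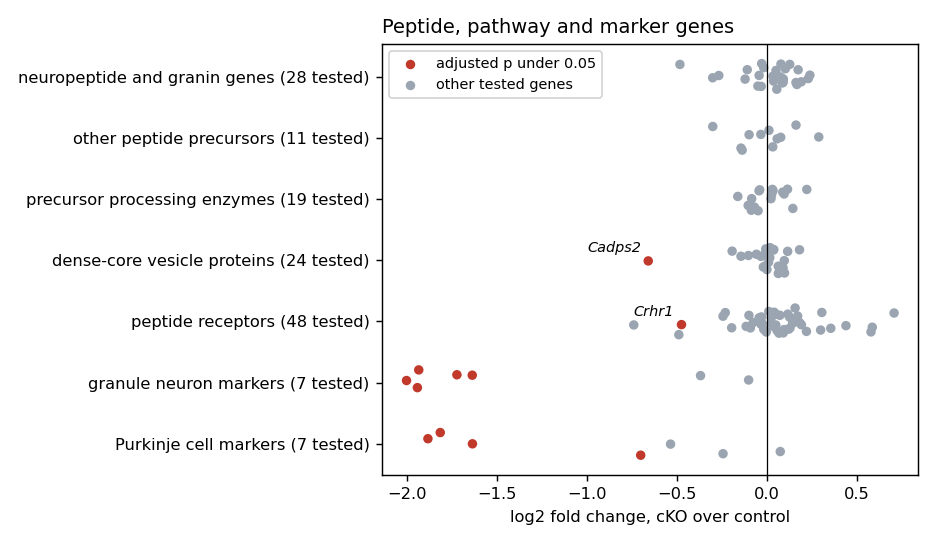
Log2 fold change, cKO over control, of the 28 tested neuropeptide and granin genes, of 102 tested genes of the peptide pathway in 4 lists, and of granule neuron and Purkinje cell markers. Each point is a gene, placed at random within its row, and red marks an adjusted p under 0.05: none of the 28, *Cadps2* and *Crhr1* of the pathway, and 9 of the 14 cerebellar markers.

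The promoters were searched for the cyclic-AMP response element, the site of the CREB family, which is known to act on several peptide and granin genes. RefSeq promoter sequences (GRCm38.p6, 250 bases before to 50 after the start) were matched for 27 of the 33 genes. The full element TGACGTCA, which reads the same on both strands, occurred in 4 of 27 (14.8%), against 2.03% of 27025 genes with such a promoter. Its short form TGACG, searched on both strands and contained in the full element, occurred in 16 of 27 (59.3%), against 23.0% of all. The matches in *Scg2*, *Chgb* and *Cartpt* are shown, with the element in capitals, since they lie in 2 granins and in the precursor that varied most between libraries among those with at least 50 fragments on average. The other match was in *Ucn*.
Scg2 (chr1:79440077-79440104, minus strand): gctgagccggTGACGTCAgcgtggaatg
Chgb (chr2:132781560-132781587, plus strand): ggctgctccgTGACGTCAgggctgagcg
Cartpt (chr13:99900778-99900805, minus strand): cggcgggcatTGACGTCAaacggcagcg
The elements end 60, 64 and 104 bases before the start annotated in RefSeq. In the merged assembly the *Scg2* locus begins at chr1:79440338 on its strand and the *Chgb* locus at chr2:132781278. The elements of these genes thus lie inside the loci on which fragments were counted, whereas that of *Cartpt* lies outside its locus. The genes that carry them had log2 fold changes of 0.08 (*Scg2*), -0.04 (*Chgb*) and -0.30 (*Cartpt*), none of which was called. A match is a description of the letters in this window.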

How the data were processed

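Total RNA of 6 pools was depleted of ribosomal RNA and sequenced from stranded libraries. Per the labels and the submitters' processing notes, the authors used CASAVA 1.6 for base calls, TopHat2 2.0.9 for alignment on mm10, Cufflinks 2.2.0 for the assembly and its merging, and Cuffdiff for the quantification. The deposited table holds, per locus and library, fragments as whole counts and FPKM scaled by Cuffdiff. FPKM need not move in step with fragments, since Cuffdiff sums it over transcripts. Genes were found by name in the deposited assembly, where 601 loci join several genes, and the table's replicate numbers, counted from 1, serve as names within a genotype.

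Counts were filtered with filterByExpr, normalized by TMM and compared with edgeR 4.0.16 (R 4.3.3) over 21854 loci. Cuffdiff's own test was not run. CPM use TMM-scaled library sizes. Libraries held 12034613 to 13202707 fragments. The p-values set each difference against the spread between pools, estimated with information shared over all loci tested.

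Alternatives were DESeq2 1.42.0, other scalings and filters, limma 3.58.1 on log2(FPKM + 1) and log2(FPKM + 0.1), each library left out, both doubtful libraries left out, a replicate block, and loci of 1 name summed. The count of pathway genes, *Cadps2* and *Crhr1*, and the cerebellar markers without cKO 1 and control 3 were added to these after the data were seen. The tests were also run on simulated counts, with limma on CPM in place of FPKM, and no result here rests on that run. The members and lists were chosen with earlier results of these data known. Values per library are given for genes that are called or apart, the 8 with the smallest p, the 6 with the highest FPKM and the 6 that vary most at 50 fragments or more, and, per pathway list, at most 3 with the lowest p. Other genes were named for their role or after their values were seen.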

Additional observations from a re-analysis of the deposited data

How the results depend on the processing

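No neuropeptide or granin gene was called under 15 of the 16 alternatives that refit the data, and *Pcsk1n* (log2 fold change 0.30) was the 1 gene called with cKO 1 and control 3 both left out. Summing fragments over every locus of a name changed no value, since each gene has 1 locus. Among 442 values of the 28 genes over these alternatives, 25 changed sign, in 13 genes whose main log2 fold change was at most 0.30 in size and which were called in neither setting, and 22 moved by more than 1 SE. The count of loci called (116) became 221 with no filter on low counts, 76 with at least 50 fragments in 3 libraries, and 0, 1 and 0 with limma on log2(FPKM + 1), log2(FPKM + 0.1) and log2(FPKM + 1) for any FPKM above 0, where 1298, 1271 and 1873 loci had an unadjusted p under 0.05. Why limma called fewer was not tested. With each library left out in turn it ran between 44 (without control 1) and 126. The count of pathway genes called (2) became 1 with at least 50 fragments in 3 libraries, 0 under each of the 3 limma settings, and 1 to 2 with a library left out. *Cadps2* was called in 13 of 16 alternatives and *Crhr1* in 8. The replicate numbers are names only: same-numbered libraries had correlations of deviations of 0.03, -0.08 and 0.05, and with the replicate block 130 loci, 0 of the 28 genes and 2 pathway genes were called. Groups of 3 pools and low fragment numbers limit what can be seen, most of all for the 13 genes under 50 fragments on average. Genotype labels that the *Hoxa5* level does not bear out in 2 libraries limit every difference given.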

Other observations

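The summed level of the 33 genes was 1942, 1935 and 1884 CPM in cKO libraries and 1822, 1856 and 1858 CPM in control libraries. No p is given for a sum over chosen genes. The highest CPM of the 28 tested genes lay in cKO 1 for 8, cKO 2 for 5 and cKO 3 for 3. It lay in control 1 for 2, control 2 for 5 and control 3 for 5. The lowest CPM lay in cKO 1 for 2, cKO 2 for 5 and cKO 3 for 1. It lay in control 1 for 9, control 2 for 6 and control 3 for 5. No such count was made over all loci.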
